A study of Mus musculus with 12 samples.

Results

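Prmt5 depletion in mouse embryonic fibroblasts (MEF) was described from every gene and every splicing event that the authors listed as changed in these cells. The members are 111 genes with a changed expression level, of 2527 entries in the tables of both cell types, and 71 splicing events in 61 genes, of 326 entries. The tables of the other cell type, cortical neural progenitor cells (NPC), hold 2416 genes and 255 events, of which 49 genes and 20 events are also among those of the fibroblasts. The 6 MEF libraries, of 12 in the series, fall into 2 arms of 3. Every library has the genotype Prmt5 F/FER, in which 4-hydroxytamoxifen (4-OHT), a ligand of estrogen receptor (ER) fusions, is used to remove Prmt5, on a strain background given as mixed C57BL/6 X 129S1/SvlmJ. The labels do not say what drives the ER construct. The fibroblasts were primary cells of E14.5 embryos, at passage 1 and grown to confluence. The depleted arm received 50 nM 4-OHT for 24 h before the cells were split, and the other received the same volume of ethanol. The ethanol cells therefore carry the conditional allele too, and no library of cells that lack it but received 4-OHT is labelled, so 4-OHT and Prmt5 loss cannot be told apart. The labels do not say whether the 3 libraries of an arm came from separate cultures or embryos, so any spread between them may be technical. The NPC libraries, set beside the fibroblasts below, also fall into 2 arms of 3, of stage E14.5, with 50 nM 4-OHT or ethanol for 24 h.

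PRMT5 is the main enzyme that places symmetric dimethyl marks on arginine. Its substrates include Sm proteins, the ring that assembles on small nuclear RNAs to form the core of the spliceosome, and tails of histones. The spliceosome removes introns at a donor site that begins with GT and an acceptor site that ends with AG, and cells short of splicing factors are known to keep weak introns and to skip exons. Embryonic fibroblasts are dividing mesenchymal cells that secrete matrix and chemokines. By its title, the series concerns the part of PRMT5 in constitutive and in alternative splicing.

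The deposited expression table gives 1 RPKM value (reads scaled by transcript length and by the mapped reads of the library) for each arm, so no spread between the 3 libraries can be computed for a gene. The total number of reads per library was not used here, so the depth behind an RPKM value is unknown. A gene stands in the table with an unadjusted Cuffdiff p-value under 0.05 and a change of over 1.5-fold, and a gene that is not listed may have missed either limit or not have been tested. Fibroblast identity could for this reason not be checked: Col1a1, Pdgfra and the other defining fibroblast markers are not listed, while 3 mural markers, Myh11, Rgs4 and Rgs5, are. Of 20 macrophage and other immune markers, 20 endothelial and blood markers and 19 skeletal muscle and cartilage markers, 0 are listed. In bulk RNA, fewer cells of a type and less RNA per cell cannot be told apart.

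Prmt5 fell 5.57-fold in the fibroblasts, from 21 RPKM with ethanol to 3.76 RPKM with 4-OHT. The authors' deposited table gives it an unadjusted p-value of 2.52e-10, and the upper bound of its Benjamini-Hochberg adjusted p, with all 55341 gene names of the annotation counted as tested, was 1.39e-05. It was the only gene with a bound under 0.05, which is 0.00181% of the names, and the next smallest bound was 1. The same gene leads the splicing table. A 164 bp coding exon of Prmt5 at chr14:55132128-55132291 (mm9, minus strand), exon 7 of 17 of the GENCODE transcript Prmt5-201, is shown because its reads separate the arms. Capitals mark the exon and lower case the ends of its neighbouring exons.
Prmt5 exon: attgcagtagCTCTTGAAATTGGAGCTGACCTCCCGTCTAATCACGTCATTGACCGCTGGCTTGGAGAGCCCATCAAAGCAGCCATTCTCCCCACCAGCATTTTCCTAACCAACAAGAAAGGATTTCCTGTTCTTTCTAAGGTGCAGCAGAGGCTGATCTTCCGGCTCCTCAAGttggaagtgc
Reads of the form with this exon numbered 412, 185 and 259 in the ethanol libraries and 0, 0 and 0 in the libraries with 4-OHT. Reads of the form without it numbered 0, 0 and 0 with ethanol and 22, 17 and 13 with 4-OHT. The inclusion level, which is the length-normalised share of reads with the exon, was 1 in every ethanol library and 0 in every library with 4-OHT. At those depths a count of 0 allows up to 3 reads, or 13.6%, 17.6% and 23.1% of the reads with 4-OHT, for counting error only. The exon length is no multiple of a codon, so skipping it shifts the reading frame, and no annotated transcript of the gene skips it. The labels do not say which part of Prmt5 is flanked by loxP sites.

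Of the 111 genes, 56 (50.5%) were higher and 55 (49.5%) lower with 4-OHT. These shares describe a list that the authors chose on the same contrast, and nothing is read from them. The median change was 2-fold among higher genes and 1.85-fold among lower genes. The directions sat at different expression levels. In the arm where each gene was higher, the median level was 3.46 RPKM for higher genes and 21 RPKM for lower genes. At least 10 RPKM in that arm was reached by 12 higher and 40 lower genes. At least 100 RPKM was reached by 1 higher gene, Mest, an imprinted mesodermal gene, and by 8 lower genes. Below 1 RPKM in both arms lay 13 higher and 2 lower genes.

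**Figure D1:**
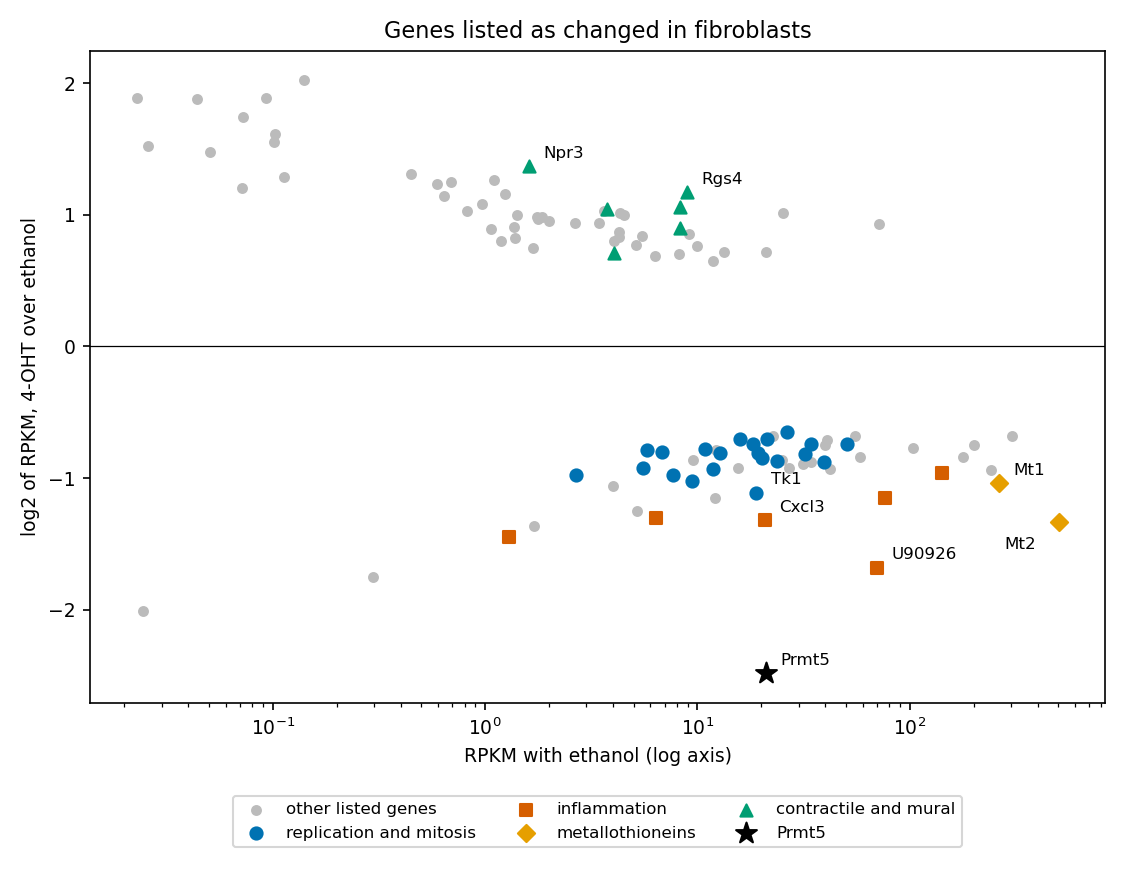
Each point is 1 listed gene, with its RPKM under ethanol on a log x axis and the log2 ratio of its RPKM with 4-OHT over ethanol on the y axis. There are no error bars because the table holds 1 value per arm, and genes listed at 0 with ethanol, such as Cxcl13, have no point. Prmt5 lies lowest among the genes above 1 RPKM, at -2.48, and replication, mitosis, inflammation and metallothionein genes all lie below 0.

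All listed genes of cell division were lower. Over all 55341 gene names of the annotation 111 are listed, and how many were tested is unknown. That share stands beside every count of listed genes here and below, and no list was tested against it. Of 45 genes in a list of DNA replication and nucleotide synthesis, 5 were listed, 0 higher and 5 lower, with a median log2 ratio of -0.79. Tk1, thymidine kinase, went from 18.9 to 8.80 RPKM, a log2 ratio of -1.11 and the largest change of the 5. The MCM helicase subunit genes Mcm3 and Mcm5 went from 21.2 to 13 RPKM and from 15.9 to 9.80 RPKM. Mybl2, a transcription factor of late cell cycle genes, went from 2.68 to 1.36 RPKM, and Pold1, the catalytic subunit of DNA polymerase delta, from 5.79 to 3.34 RPKM.

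Of 90 genes of mitosis, kinetochore and spindle, 16 were listed, 0 higher and 16 lower, with a median log2 ratio of -0.82. The mitotic kinase Cdk1 went from 26.3 to 16.7 RPKM and its cyclin partner Ccnb2 from 20.1 to 11.1 RPKM. Top2a, which untangles sister chromatids, went from 34.2 to 20.4 RPKM. Birc5 and Aurkb, members of the chromosomal passenger complex, went from 39.5 to 21.4 RPKM and from 10.8 to 6.31 RPKM. The centromeric histone gene Cenpa went from 19.3 to 11.0 RPKM, and the spindle checkpoint gene Mad2l1 from 18.2 to 10.9 RPKM. Ube2c, the ubiquitin-conjugating enzyme of the anaphase-promoting complex, went from 32.2 to 18.2 RPKM. The ratios were close in size, and over the 16 genes ran from -1.02 for Cdkn3, a cyclin-dependent kinase phosphatase, to -0.65 for Cdk1. The other listed members were Hmgb2, D2Ertd750e (Knstrn), Cdca3, Stmn1, Melk, Cdca5 and Fam64a (Pimreg), with log2 ratios between -0.98 and -0.74. In the authors' deposited table the smallest p-value among the 21 genes of both lists is 0.00987, for Tk1. The bound on the adjusted p was 1 for each of them. Of 81 DNA repair and checkpoint genes, 0 were listed, and with so few names listed nothing is read from this.

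The promoters of late cell cycle genes are known for a cell cycle homology region, with the letters TTTGAA, and for CCAAT boxes. Promoters of Cdk1 and Ccnb2 are shown because both genes were lower and both hold both motifs. Each is the 250 bases before the gene's start in RefSeq on GRCm38.p6, read 5′ to 3′ on the gene's strand, at chr10:69352913-69353162 for Cdk1 and chr9:70421555-70421804 for Ccnb2. Capitals mark TTTGAA and CCAAT on either strand, so that CCAAT on the opposite strand reads ATTGG.
Cdk1 promoter: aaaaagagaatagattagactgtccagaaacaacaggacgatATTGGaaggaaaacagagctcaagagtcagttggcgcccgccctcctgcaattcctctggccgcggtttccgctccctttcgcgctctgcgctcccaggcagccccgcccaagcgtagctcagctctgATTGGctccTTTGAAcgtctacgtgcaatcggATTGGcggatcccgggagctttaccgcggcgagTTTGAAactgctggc
Ccnb2 promoter: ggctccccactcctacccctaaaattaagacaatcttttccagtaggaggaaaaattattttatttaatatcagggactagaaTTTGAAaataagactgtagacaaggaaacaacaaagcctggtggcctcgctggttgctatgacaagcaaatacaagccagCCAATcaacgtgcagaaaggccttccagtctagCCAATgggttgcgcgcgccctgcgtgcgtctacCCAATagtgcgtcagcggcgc
Cdk1 holds 2 copies of TTTGAA and 3 of CCAAT, and Ccnb2 1 and 3. The copies of TTTGAA begin 71 and 15 bases before the start of Cdk1, and 167 bases before that of Ccnb2. The Ccnb2 copy lies upstream of all 3 CCAAT sequences. Whether any copy acts as a cell cycle homology region was not tested. A promoter was matched by symbol for 13 of the 16 listed mitosis genes. TTTGAA, searched on both strands, was found in 7 of the 13 and in 16.3% of all 27025 promoters of the same length. CCAAT was found in 8 of the 13 and in 34.5% of all promoters. The letters of these 2 motifs do not overlap in either promoter shown, and a match is a description of the sequence, not a sign of binding.

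Listed inflammatory genes were lower as well. Of 61 genes of inflammation, chemokines and NF-kB, 6 were listed, 0 higher and 6 lower, with a median log2 ratio of -1.31. U90926 went from 70.1 to 21.9 RPKM, a log2 ratio of -1.68, and was the lowest of the list. The chemokine genes Cxcl3 and Ccl20 went from 20.8 to 8.29 RPKM and from 142 to 72.9 RPKM. Hp, which encodes the acute phase protein haptoglobin, went from 76.2 to 34.4 RPKM, and Chi3l1 (Chil1), a secreted chitinase-like protein, from 6.41 to 2.60 RPKM. Traf1, an adaptor of tumour necrosis factor receptors, went from 1.29 to 0.471 RPKM. A kappa B sequence (GGG, any 2 bases, then TTTCC) stood on either strand of the 250 bases before Cxcl3 and Ccl20, 2 of the 5 genes of this group with a promoter, and in 1.40% of all promoters. Cxcl13, a chemokine gene outside that list, is listed at 0 with ethanol and at 0.0477 RPKM with 4-OHT.

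Both listed metallothionein genes, which encode metal-binding proteins, were lower, of 16 genes of metal handling. Mt2 went from 503 to 201 RPKM and Mt1 from 264 to 128 RPKM. They were 2 of the 8 lower genes at 100 RPKM or more. The authors' deposited table gives unadjusted p-values of 0.00231 for Mt2 and 0.00493 for Mt1.

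Listed contractile and mural genes were higher. Of 40 genes in that list, 6 were listed, 6 higher and 0 lower, with a median log2 ratio of 1.05. Myh11, the smooth muscle myosin heavy chain, went from 8.25 to 17.2 RPKM. Rgs4 and Rgs5, regulators of G protein signalling, went from 8.90 to 20.1 RPKM and from 3.76 to 7.73 RPKM. Npr3, the clearance receptor of natriuretic peptides, went from 1.61 to 4.17 RPKM and had the largest log2 ratio of the group, 1.37. Itga8, an integrin chain, went from 8.28 to 15.5 RPKM, and Mylk, the myosin light chain kinase, from 4.04 to 6.59 RPKM. Rgs4 and Myh11 have the smallest p-values after Prmt5 in the authors' deposited table, 0.000725 and 0.000901. Acta2, Tagln and Cnn1, other smooth muscle genes in the list, are not listed. Eln, which encodes elastin, was the 1 listed member of 71 matrix and fibroblast genes and went from 25.3 to 51.1 RPKM.

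Of 43 p53 targets and regulators, 2 were listed, both higher: Ptprv, a receptor-type phosphatase, from 0.694 to 1.65 RPKM and Ano3, an anoctamin, from 4.31 to 8.68 RPKM. In NPC, whose table holds 2416 genes against 111, 27 of the 43 were listed, 26 higher and 1 lower, and the difference between the cell types was not tested. Of 49 interferon and antigen presentation genes 2 were listed, both higher: Rsad2 and Oasl2 went from 1.24 to 2.76 RPKM and from 4.49 to 9.01 RPKM. Of 28 neural markers 3 were listed, all higher: Svop from 0.447 to 1.11 RPKM, the Notch ligand gene Jag1 from 5.15 to 8.78 RPKM and Ptprz1 from 1.69 to 2.85 RPKM. Of 18 epithelial markers 1 was listed, the desmosome gene Dsp, from 0.819 to 1.67 RPKM. Of 96 genes of the spliceosome, the SMN complex and PRMT5 partners 1 was listed, Prmt5 itself. Of 66 splicing regulators, 79 chromatin regulators and 36 stress response genes, 0 were listed. With 111 of 55341 gene names listed, lists of this size can easily hold 0, so nothing is read from these counts.

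Outside the lists, large changes at 1 RPKM or more included genes of varied kinds. St8sia2, a polysialyltransferase, went from 0.594 to 1.39 RPKM, and Cobl, an actin nucleator, from 0.638 to 1.40 RPKM. Myh2, a skeletal myosin heavy chain, went from 0.970 to 2.04 RPKM. Among lower genes, Enpp2, which encodes autotaxin, went from 12.1 to 5.48 RPKM, Wfdc2 from 5.18 to 2.18 RPKM and Rasl12 from 1.70 to 0.661 RPKM. Other genes with a p-value under 0.01 in the authors' deposited table included Pappa, a metalloprotease, from 3.43 to 6.58 RPKM, Adamts12, also a metalloprotease, from 9.17 to 16.5 RPKM, and Atp12a, a proton pump gene, from 0.140 to 0.569 RPKM.

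The 71 splicing events were taken from the authors' MATS table, which gives the reads of the inclusion and exclusion forms in 1 ethanol and 1 4-OHT library under each of 3 pair codes, 159, 161 and 163. The codes match no label. An event is present when its difference of inclusion level passed 0.2 with an unadjusted p under 0.05 in 2 or 3 pairs. For 62 of the 71 events the remaining pair is not listed and its values are unknown, so means over listed pairs lean toward larger differences. Pair 161 holds 60 of the events, pair 163 holds 47 and pair 159 holds 44. The median event had 73.5, 94.5 and 47 reads in the ethanol libraries of pairs 159, 161 and 163, and 113, 61.5 and 62 reads in the libraries with 4-OHT. In 21 events a listed library had under 20 reads.

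The inclusion level was higher with 4-OHT in 36 events (50.7%) and lower in 35 (49.3%), again shares of a list chosen on this contrast. The classes went different ways. Of 21 retained introns, 19 were more retained with 4-OHT and 2, in Mettl17 and Fam98b, were less retained. Of 32 skipped exons in 27 genes, 25 were included less and 7 more. The 25 include the Prmt5 exon, and the labels do not say whether the conditional allele removes it. It is kept in the counts of skipped exons below. Alternative acceptor sites favoured the longer exon in 8 of 9 events, and 3 of 3 alternative donor sites favoured the shorter exon. Of 6 pairs of mutually exclusive exons, 2 were higher and 4 lower. No event changed direction between its listed pairs, which the listing may have required.

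**Figure D2:**
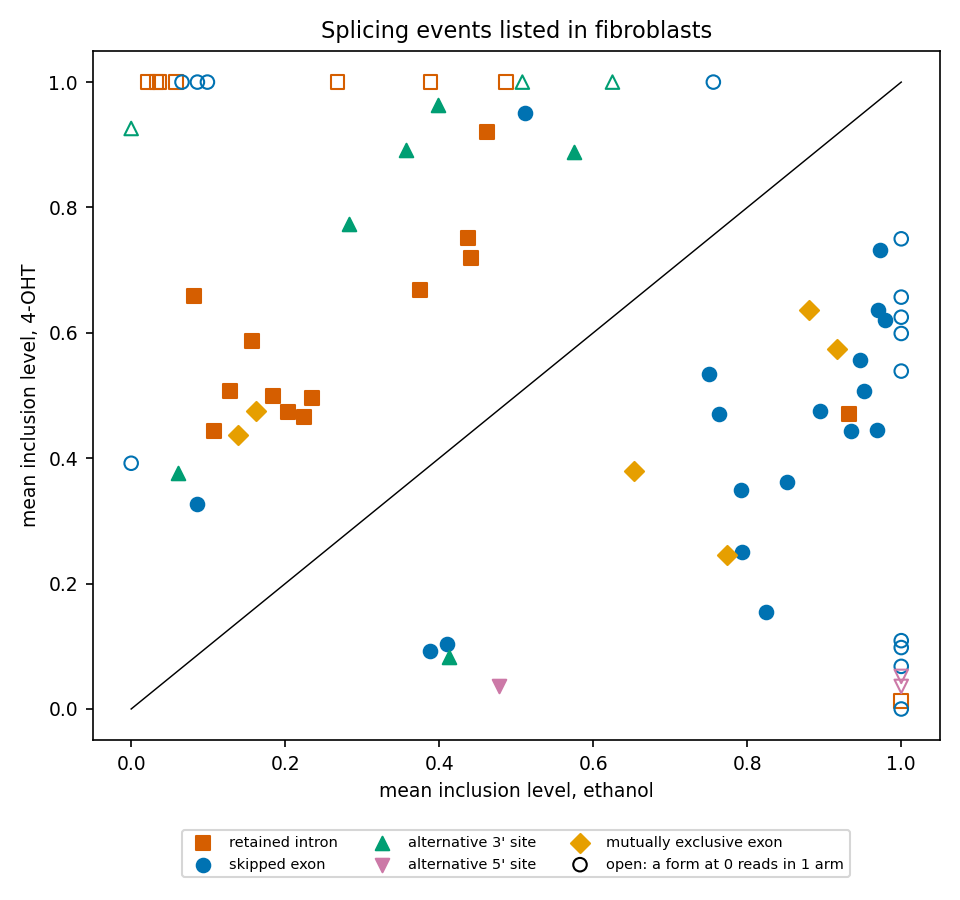
Each point is 1 of the 71 events, with its mean inclusion level over the listed ethanol libraries on the x axis and over the libraries with 4-OHT on the y axis, both as fractions of 1, and the diagonal is equality. Retained introns lie above the diagonal except for 2, skipped exons mostly below it, and the 27 open symbols are events in which a form had 0 reads in every listed library of 1 arm.

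In 9 events all 3 pairs were listed, so that every library has a value. The arms did not overlap in 9 of the 9 (100%), which the listing in every pair favours. The exact two-sided permutation test of 3 against 3 libraries gave p = 0.1 for each, the smallest value it allows.

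The 4 introns in this group were retained more in every library with 4-OHT. The Nono intron, 504 bp in a gene for a splicing regulator of paraspeckles, had levels of 0.035, 0.028 and 0.035 with ethanol and 1, 1 and 1 with 4-OHT. Its spliced form went from 171, 147 and 79 reads to 0, 0 and 0, while the retained form went from 97, 67 and 45 reads to 225, 141 and 122. A count of 0 allows up to 1.33%, 2.13% and 2.46% of those reads, for counting error only. Whether the way forms were counted plays a part in a count of 0, here and in the other events that have one, could not be settled from the files, and a level of exactly 0 or 1 is to be read with this limit. The Rasa4 intron, in a Ras GTPase-activating protein gene, had levels of 0.215, 0.199 and 0.197 with ethanol and 0.498, 0.514 and 0.410 with 4-OHT. Its means were 0.204 ± 0.010 and 0.474 ± 0.056 (SD, n = 3). The listing of every pair on these levels favours a difference beyond that spread, so nothing is read from it. The Galt intron, in the gene for galactose-1-phosphate uridylyltransferase, had levels of 0.160, 0.262 and 0.282 with ethanol and 0.483, 0.480 and 0.526 with 4-OHT. The Timm10b intron, in a gene of mitochondrial protein import, had levels of 0.159, 0.089 and 0.224 with ethanol and 0.427, 0.333 and 1 with 4-OHT. The level of 1 rests on pair 163, in which 0 of 62 reads were of the spliced form, and the mean difference was 0.429 with this pair and 0.256 without it.

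**Figure D3:**
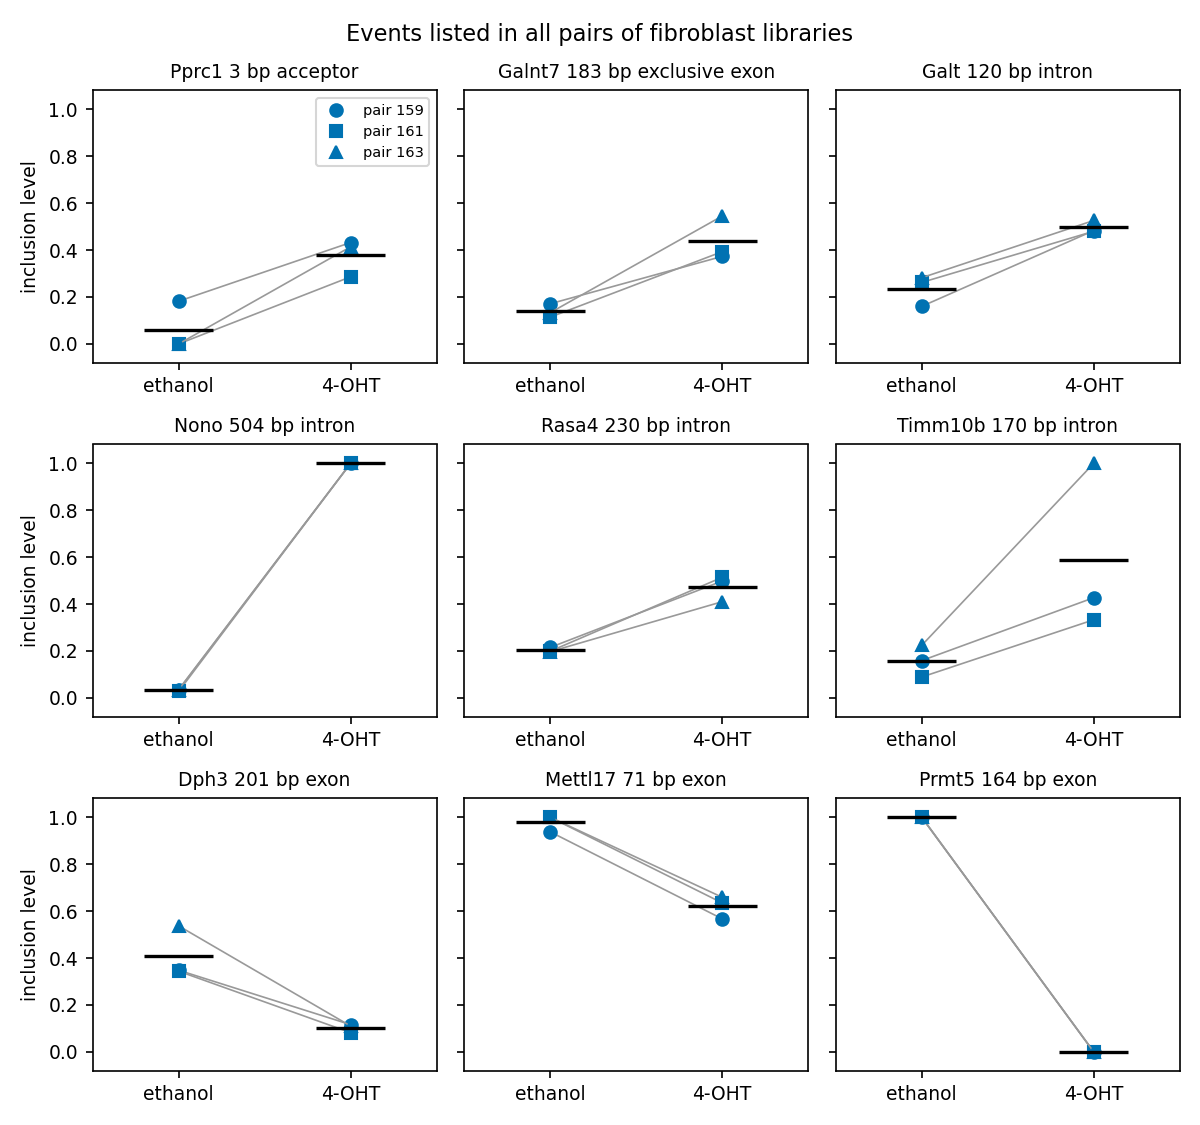
Each panel is 1 event listed in all 3 pairs, with the inclusion level (fraction of 1) of each library on the y axis, the arm on the x axis, 1 marker per pair code, grey lines joining the libraries of a pair and black bars at the arm means. The arms do not overlap in any of the 9 panels, and the widest spread is that of Timm10b with 4-OHT, from 0.333 to 1.

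These introns are printed because they carry the retained-intron result in every library. Their sequences come from GENCODE M21 transcripts of the same gene that retain them, matched by the lengths of exons and introns, and the positions are those of the deposited table in mm9. Rasa4 is at chr5:136577265-136577494, Galt at chr4:41703435-41703554, Timm10b at chr7:112789372-112789541 and Nono at chrX:98640130-98640633, all on the plus strand. Capitals mark the intron and lower case the 10 bases of exon on either side, and of the longer Nono intron the first and last 40 bases are shown.
Galt intron: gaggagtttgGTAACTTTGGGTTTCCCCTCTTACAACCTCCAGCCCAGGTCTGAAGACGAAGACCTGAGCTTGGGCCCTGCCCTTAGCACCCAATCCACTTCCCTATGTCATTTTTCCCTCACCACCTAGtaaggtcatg
Timm10b intron: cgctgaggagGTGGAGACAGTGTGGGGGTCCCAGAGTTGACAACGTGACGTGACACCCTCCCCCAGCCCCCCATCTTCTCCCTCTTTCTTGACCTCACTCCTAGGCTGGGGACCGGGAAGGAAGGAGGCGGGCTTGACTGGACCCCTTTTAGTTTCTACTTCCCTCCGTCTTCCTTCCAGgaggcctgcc
Rasa4 intron: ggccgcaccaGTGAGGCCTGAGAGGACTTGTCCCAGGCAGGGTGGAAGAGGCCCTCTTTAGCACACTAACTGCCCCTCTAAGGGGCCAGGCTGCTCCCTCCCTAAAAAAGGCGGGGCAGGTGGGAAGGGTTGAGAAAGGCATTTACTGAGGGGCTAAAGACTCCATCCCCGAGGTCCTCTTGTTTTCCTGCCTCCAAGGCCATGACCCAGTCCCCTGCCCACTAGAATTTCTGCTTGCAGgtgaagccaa
Nono intron start: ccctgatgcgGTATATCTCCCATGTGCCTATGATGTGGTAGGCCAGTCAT
Nono intron end: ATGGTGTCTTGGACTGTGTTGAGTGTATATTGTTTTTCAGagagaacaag
All 21 introns of this class were matched, and each begins with GT and ends with AG. The 19 more retained introns were 90 to 1547 bp long, with a median of 272 bp, and 11 of the 19 were shorter than the median intron of their own transcript. Those of Mettl26, Phkg2, Mrps17 and Timm10b were themselves that median, and those of Fhod1, Pidd1, Stoml2 and Ppox were longer. The GC content of the 21 had a median of 47.6% and ran from 35.7% in Nono to 65.2% in Ankrd13b. The reading frame could be followed into 18 of the 21, and all 18 held an in-frame stop codon, from 2 to 38 codons after the junction. In Galt, Rasa4 and Timm10b it came at codons 2, 4 and 10, counted from the codon that holds the first base of the intron. The share of other introns with such a stop was not computed, so nothing is read from the 18.

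The other more retained introns were each listed in 2 pairs. Wdr75 and Parl, genes of ribosomal RNA processing and of a mitochondrial protease, had levels near 0 with ethanol (0.037 ± 0.011 and 0.022 ± 0.004, SD, n = 2) and of 1 with 4-OHT. The spliced form of Wdr75 went from 80 and 68 reads to 0 and 0, and that of Parl from 59 and 31 to 0 and 0. Smaller shifts had reads of both forms in both arms. Mrps17, a mitochondrial ribosomal protein gene, went from 0.256 and 0.193 to 0.501 and 0.429. Ppox, an enzyme of heme synthesis, went from 0.430 and 0.452 to 0.697 and 0.743. Phkg2, a phosphorylase kinase subunit, went from 0.190 and 0.179 to 0.396 and 0.602, and Fhod1, a formin, from 0.163 and 0.093 to 0.457 and 0.559. Pidd1, a p53 target that encodes a death domain protein, went from 0.602 and 0.321 to 1 and 0.840, with 9 reads of the spliced form over both ethanol libraries and 1 over both with 4-OHT. Mettl26 and Ankrd13b had mean levels of 0.375 and 0.108 with ethanol and of 0.669 and 0.444 with 4-OHT. Further introns without reads of the spliced form under 4-OHT were those of Tctex1d2, 2410002F23Rik and Aebp2, from mean levels of 0.058, 0.268 and 0.389. Stoml2, a mitochondrial inner membrane gene, went from 0.059 and 0.103 to 0.316 and 1, with 7 reads in its smallest library. Of the less retained introns, Fam98b went from 1 and 1 to 0.016 and 0.009, with 0 and 0 spliced reads against 64 and 43, and Mettl17 from 0.864 and 1 to 0.407 and 0.534. The Mettl17 interval holds both listed exons of that gene. Its spliced reads, 1 and 0 against 13 and 6, are the skipped reads of those exons, so its level is not separate from theirs. In each of the more retained introns of this paragraph the lowest listed library with 4-OHT lay above the highest listed with ethanol. The listing of each pair favours this, and the unlisted pair is unknown. Among all listed events only the Tlk2 exon had overlapping arms.

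Adamts10, a secreted metalloprotease, was the only gene besides Prmt5 in both fibroblast tables. Its RPKM went from 8.22 to 13.3, and its 90 bp intron, the shortest of the class, went from levels of 0.483 and 0.391 to 0.734 and 0.769. Intron reads numbered 61 and 14 with ethanol and 120 and 62 with 4-OHT. RPKM was counted for the gene as a whole, and what the intron reads add to it was not tested.

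Among skipped exons, Mettl17, which encodes a mitochondrial methyltransferase-like protein, and Dph3, of diphthamide synthesis, were listed in every pair. The 71 bp exon of Mettl17 had levels of 0.938, 1 and 1 with ethanol and 0.567, 0.635 and 0.659 with 4-OHT. Its skipped form went from 1, 0 and 0 reads to 13, 6 and 4 reads. The 201 bp exon of Dph3 had levels of 0.348, 0.344 and 0.537 with ethanol and 0.116, 0.082 and 0.110 with 4-OHT. The 201 bp exon contains the 75 bp exon of another listed event of the gene, and these events share their skipped reads. The Mettl17 exon lies likewise within its other exon event and within its less retained intron.

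Regulators of splicing and of p53 were among the skipped exons. The 78 bp exon of Ptbp1, the polypyrimidine tract-binding repressor of exons, went from 0.647 and 1 to 0.122 and 0.188, with 52 and 0 skipped reads with ethanol and 75 and 56 with 4-OHT. In pair 161 the included form went from 265 to 29 reads, and in pair 163 from 19 to 36 reads. Mdm2, the E3 ligase that degrades p53, had a 131 bp exon of the 5′ UTR that went from 0.786 and 0.716 to 0.563 and 0.506, with 406 and 247 included reads with ethanol. Tia1, an RNA-binding splicing regulator, had a 66 bp exon that went from 0.105 and 0.066 to 0.384 and 0.269, and a 33 bp mutually exclusive exon that went from 0.891 and 0.869 to 0.641 and 0.634. Upf3b, a factor of nonsense-mediated decay, had a 39 bp exon that went from 0.529 and 0.247 to 0.153 and 0.032. Med25, a Mediator subunit, had a 72 bp exon that went from 0.937 and 1 to 0.489 and 0.401. In Tlk2, a chromatin assembly kinase, the arms overlapped: the 96 bp exon had levels of 0.584 and 1 with ethanol and 0 and 0.701 with 4-OHT, and the 0 rests on 14 reads. Less included exons of Erbin, Mllt10, Mindy3, Pycr1, Ubap2l, Tbc1d24 and 5730480H06Rik had mean differences between -0.542 and -0.250. Exons with a higher level included the 15 bp microexon of Immt, a gene of mitochondrial cristae, from 0 and 0 to 0.393 and 0.390, and the 63 bp exon of Tpm4, a tropomyosin, from 0.791 and 0.722 to 1 and 1. For Immt the included form went from 0 and 0 reads, beside 169 and 132 skipped reads, to 54 and 39 reads.

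The exons below are printed because they show the range of what was skipped or gained, from a microexon to a frame-shifting exon. Mettl17 is at chr14:52508822-52508892, Ptbp1 at chr10:79322862-79322939, Upf3b at chrX:34639061-34639099 on the minus strand, Immt at chr6:71816720-71816734 and Tpm4 at chr8:74670956-74671018, in mm9 and on the plus strand except Upf3b. Capitals mark the exon and lower case 10 bases of each neighbouring exon of the GENCODE transcript.
Mettl17 exon, lower: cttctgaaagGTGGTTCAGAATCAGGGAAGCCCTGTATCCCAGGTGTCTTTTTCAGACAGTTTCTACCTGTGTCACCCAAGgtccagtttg
Ptbp1 exon, lower: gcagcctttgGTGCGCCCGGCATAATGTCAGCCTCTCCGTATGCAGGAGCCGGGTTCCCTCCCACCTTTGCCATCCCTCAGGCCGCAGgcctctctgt
Upf3b exon, lower: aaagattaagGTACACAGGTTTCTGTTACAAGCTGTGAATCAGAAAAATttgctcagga
Immt exon, higher: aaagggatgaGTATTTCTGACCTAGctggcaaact
Tpm4 exon, higher: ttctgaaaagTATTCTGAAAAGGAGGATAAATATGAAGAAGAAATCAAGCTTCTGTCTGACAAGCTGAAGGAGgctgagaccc
All 32 skipped exons matched an annotated exon by length. Of these, 22 lie wholly in coding sequence, and the length of 18 of the 22 keeps the reading frame. Overlapping exons of Ubap2l and of R3hdm2 are counted separately in the 22. Over all skipped exons, coding or not, the length keeps the frame in 21 of 32 here and in 56 of 135 in NPC, and this was not tested. Among the 17 coding exons that were included less, 13 keep the frame and Mettl17 and Prmt5 are among those that shift it. The skipped form is an annotated transcript for 23 of the 32.

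Alternative splice sites differed by few bases in several genes. Pprc1, a coactivator of mitochondrial biogenesis, has an acceptor site 3 bases further upstream, which was used at levels of 0.182, 0 and 0 with ethanol and 0.432, 0.286 and 0.414 with 4-OHT. Reads of the longer form numbered 8, 0 and 0 with ethanol and 19, 10 and 12 with 4-OHT. Tsc2, a repressor of mTOR signalling, has the same kind of site 3 bases apart and went from 0.571 and 0.143 to 0.938 and 0.846, with at most 16 reads in a library. Tcf7l2, a Wnt pathway transcription factor, moved the opposite way for a site 15 bases apart, from 0.405 and 0.421 to 0.053 and 0.112. Yars2, a mitochondrial tyrosyl-tRNA synthetase, went from 0.529 and 0.621 to 0.777 and 1 for a stretch of 35 bases that shifts the frame.
These stretches are printed with 15 bases of exon on either side because the change is a matter of a few letters, and capitals mark the bases that only the longer form holds. They lie at chr19:46136631-46136633 for Pprc1, chr17:24741935-24741937 for Tsc2, chr19:55991829-55991843 for Tcf7l2 and chr16:16306556-16306590 for Yars2 (mm9, with Tsc2 on the minus strand).
Pprc1, higher: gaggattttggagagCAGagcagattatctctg
Tsc2, higher: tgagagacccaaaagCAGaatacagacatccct
Yars2, higher: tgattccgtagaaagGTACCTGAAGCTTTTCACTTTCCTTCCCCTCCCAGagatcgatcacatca
Tcf7l2, lower: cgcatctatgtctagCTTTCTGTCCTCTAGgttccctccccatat
The other longer acceptor exons, in Iffo1, Plekhg2, Ist1 and Chtop, add 545 to 1426 bases and had mean differences of 0.566, 0.491, 0.375 and 0.492. The extra bases of Pprc1 and of Tsc2 are both CAG, which ends with the AG of the downstream site. Galnt7, a glycosyltransferase, had the only mutually exclusive exon listed in every pair, with levels of 0.171, 0.114 and 0.133 with ethanol and 0.373, 0.393 and 0.545 with 4-OHT. Cct4, a chaperonin subunit, had the most reads of that class and went from 0.658 and 0.647 to 0.368 and 0.391. The other mutually exclusive exons were in Rbx1, Dnajc8 and a gene without a symbol in the table, with mean differences of 0.314, -0.528 and -0.342. The Dnajc8 level of 0 with 4-OHT in pair 161 rests on 7 reads.

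The largest differences belonged to events in which a form had no reads in an arm. In 27 of the 71 fibroblast events (38.0%), 1 form had 0 reads in every listed library of 1 arm and reads in every listed library of the other. In NPC this held for 54 of 255 events (21.2%). The limit on counts of 0 given for Nono applies to all of them. The median absolute difference was 0.901 in these 27 events and 0.339 in the other 44. Examples without a retained intron are Tpm3, a tropomyosin, whose skipped form went from 0 and 0 to 209 and 103 reads, and Usp9x, a deubiquitinase, whose shorter form went from 0 and 0 to 99 and 61. In Psma3, a proteasome subunit, 488 and 242 reads with 4-OHT, against 0 and 0 with ethanol, serve both its acceptor and its donor event. In Mtfr1 the skipped form went from 0 and 0 to 84 and 34 reads, and in Ppia, cyclophilin A, from 0 and 0 to 59 and 61. Total reads of the listed ethanol libraries were 85 for Tpm3, 28 for Usp9x, 18 for Mtfr1 and 140 for Ppia. For Psma3 they were 79 for the acceptor and 37 for the donor event. A count of 0 with ethanol thus allows up to 23.1% and 20.0% of the Usp9x reads and 33.3% in each Mtfr1 library, for counting error only. The total reads of an event differed over 2-fold between arms in 10 of the 27 and in 5 of the other 44, and what such a gap adds to the differences was not tested. Without the 27 events, retained introns were 12 higher and 1 lower, and skipped exons 2 higher and 16 lower. The 1 lower intron is that of Mettl17, whose spliced reads are also the skipped reads of its exon events.
Single libraries weighed on some events. The included form of the Rpl23 exon, in a ribosomal protein gene, had 934 reads in the ethanol library of pair 161 and 92 in that of pair 163, against 98 and 78 reads with 4-OHT. Chtop, an mRNA export factor, was listed for a retained intron and for an acceptor site that share their spliced reads, 39 and 28 with ethanol and 0 and 0 with 4-OHT. The 73 bp exon of Tcf7l2, with a mean difference of 0.934, rests on 3 to 8 reads in a library, and both 102 bp and 63 bp exons of R3hdm2 share the 62 and 32 skipped reads of the ethanol libraries.

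Set beside NPC, the fibroblast list was short and partly the same. Of the 111 genes, 49 were also listed in NPC, which is 44.1% of the fibroblast list and 2.0% of the NPC list. Of the 49, 15 were higher in both and 27 lower in both. Of the 21 listed replication and mitosis genes, 20 were also lower in NPC, the exception being Cdca5, which is not listed there. Cdkn3, for example, went from 15.0 to 5.59 RPKM in NPC and from 9.40 to 4.64 RPKM in fibroblasts. Most members of these lists were lower in NPC anyway, 41 of 45 replication genes and 73 of 90 mitosis genes, so nothing is read from the 20. The opposite direction was listed for 7 genes. Prelp, a matrix proteoglycan, Hmcn1 and St8sia2 were higher in fibroblasts and lower in NPC, and Mt2, Gm4349, the pyruvate dehydrogenase kinase Pdk1 and the peroxisomal enzyme Phyh were lower in fibroblasts and higher in NPC. Mt2 went from 43.2 to 66.3 RPKM in NPC, against 503 to 201 RPKM in fibroblasts. None of the 6 inflammatory genes is listed in NPC, where 10 other members of that list were higher. Ptprv went from 0.138 to 2.82 RPKM in NPC, a log2 ratio of 4.35 against 1.25 in fibroblasts. With 1 value per arm in each cell type, no difference between the cell types was tested for any gene.

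**Figure D4:**
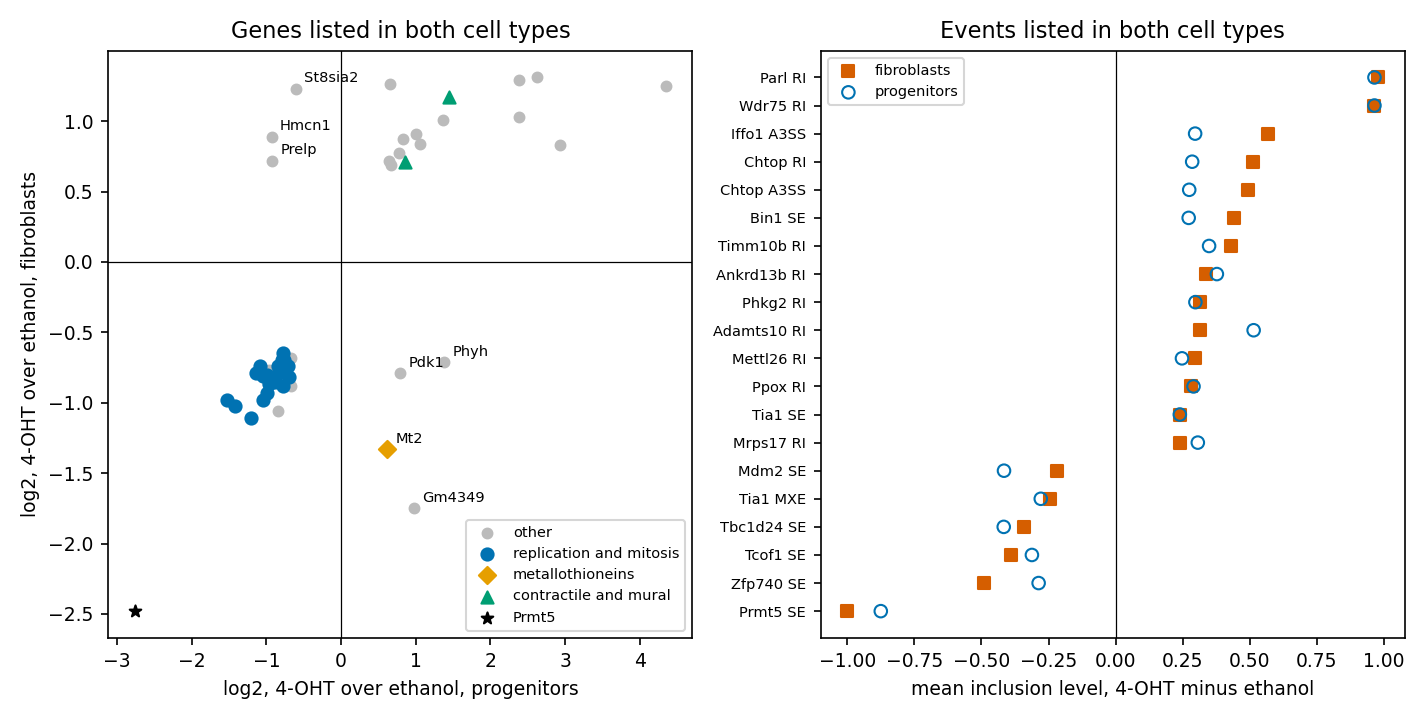
The left panel shows each gene listed in both cell types, with its log2 ratio of RPKM, 4-OHT over ethanol, in NPC on the x axis and in fibroblasts on the y axis, and the 7 genes of opposite direction are named. The right panel shows the mean difference of inclusion level for the 20 events listed in both, and the filled squares of fibroblasts and the open circles of NPC lie on the same side of 0 for all 20.

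By coordinates, 20 events were listed in both cell types, 28.2% of the fibroblast events and 7.84% of those in NPC, and all 20 had the same direction. They comprised 10 retained introns, 7 skipped exons, 2 acceptor sites and 1 mutually exclusive exon. The 20 include the exon of Prmt5 itself, both Chtop events, which share their spliced reads, and both Tia1 events. Retained introns were higher in 19 of 21 fibroblast events and 79 of 82 NPC events, which favours agreement within that class. Sizes were close in several: the Ppox intron differed by 0.279 in fibroblasts and 0.290 in NPC, and the Tia1 exon by 0.241 and 0.239. Wdr75 and Parl went to a level of 1 with 4-OHT in both cell types. Iffo1, a filament-like protein gene, had an acceptor event that differed by 0.566 in fibroblasts and 0.296 in NPC, and the Zfp740 exon by -0.489 and -0.287. The Mdm2 exon differed by -0.217 in fibroblasts and -0.416 in NPC, and the Adamts10 intron by 0.315 and 0.514. Bin1, which shapes membranes, and Tcof1, of ribosomal RNA synthesis, had exons that differed by 0.440 and -0.389 in fibroblasts and by 0.272 and -0.312 in NPC. Of the 9 fibroblast events listed in every pair, Timm10b and Prmt5 were listed in NPC too. These differences between cell types were not tested.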

How the data were processed

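Total RNA of 6 fibroblast libraries was sequenced on an Illumina HiSeq after TruSeq v2 preparation, per the labels. CASAVA 1.8, Bowtie2 2.0.0.6, TopHat2 2.03, Cuffdiff 2.02 and the build mm9 are named in the submitters' processing notes. The version of MATS, which the splicing table is named for, is not given in the sources used here. The authors deposited 1 RPKM value per arm, a log2 ratio and an unadjusted p-value for each listed gene, per the file headers. The log2 ratio of 4-OHT over ethanol was recomputed from the RPKM values. For splicing, per the file headers, the authors deposited read counts of both forms in each library, the inclusion level as a fraction, the difference score and an unadjusted p-value.

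The files hold only listed genes and events, so the planned tests were limited to a bound on the adjusted p (Benjamini-Hochberg) from above and to exact permutation tests over libraries, which were checked on simulated data. Depth per library is unknown, and limits for a count of 0 use 3 reads. Positions are 1-based in mm9. GENCODE M21, on GRCm38, was matched within the same Ensembl gene by lengths. Work used Python 3.11.15, pandas 2.3.3, numpy 2.4.6, scipy 1.17.1 and matplotlib 3.10.9.

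Genes were named if their deposited p was under 0.01, if they were among the 10 largest changes of a direction at 1 RPKM or more, if they stood in 1 of 18 gene lists, or if they were in both tables. Events were named if listed in 3 pairs, if among the 5 largest of a class and direction, if in a listed gene, or if shared with NPC, and others were chosen after their values were seen. A few results that this rule names are not reported here. The members, lists and rules were chosen with earlier results of these data known. Pair codes match no label. Deviations from the arm means were correlated over 8 events listed in every pair, without Prmt5. Libraries with the same code had r of 0.232, 0.665 and 0.252, and those with different codes had r from -0.478 to 0.125. With so few events, and with listing in every pair favouring higher values under the same code, the codes are not shown to mark shared cultures.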

Additional observations from a re-analysis of the deposited data

How the results depend on the processing

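The depth of the libraries is unknown and the expression table has 1 value per arm, so leaving out a library was possible for events only. Of the 111 genes, 73 had at least 5 RPKM in the higher arm (24 of 56 higher, 49 of 55 lower), 15 a p-value under 0.01 in the authors' deposited table (9 higher, 6 lower), and 45 an absolute log2 ratio of at least 1 (29 higher, 16 lower). With a pseudocount of 1 RPKM, 28 higher genes remained past 1.5-fold. Of the 71 events, 43 differed by at least 0.3 in every listed pair (20 higher, 23 lower), 37 had p under 0.01 in every listed pair (18 higher, 19 lower) and 9 were in 3 pairs (6 higher, 3 lower). With at least 20 reads in every arm, 22 lower events remained. For the 19 more retained introns these settings left 9 at the difference of 0.3, 9 at the stricter p and 4 in 3 pairs, and for the 25 less included exons 15, 14 and 3. Without 1 pair, the events still listed in both others numbered 20 to 36, of which 13 to 19 were higher and 7 to 20 lower, with 8 to 10 retained introns higher and 5 to 17 exons lower. Each of these lowest counts came without pair 161, which has the most events. In an alternative chosen after the data were seen, 44 events had reads of both forms in each arm (21 higher, 23 lower, 12 retained introns and 16 exons), and 1 event per gene left 61. With the replicate block, taken from the pair codes, 9 of 9 events listed in every pair kept 1 sign in all pairs (exact sign-flip p = 0.25, its smallest value). With summed reads 9 of the 9 kept their direction. None of the settings run reversed a direction, but they could hardly do so. The settings on counts only select among listed events, and the 9 events were listed on these same levels in every pair. Nothing is read from the kept directions.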

Other observations

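Some genes were singled out by their symbols after their values were seen. All 5 listed genes with a symbol beginning Adamts were higher. They include the metalloprotease gene Adamts17 (0.0258 to 0.0740 RPKM) and the ADAMTS-like genes Adamtsl3 (11.9 to 18.7 RPKM) and Adamtsl1 (1.37 to 2.58 RPKM), whose proteins lack the protease domain. All 4 with a symbol beginning Ptpr were higher, among them Ptprd (4.03 to 7.02 RPKM) and Ptprq (1.85 to 3.66 RPKM), which are in no fixed list, while Ptprv and Ptprz1 are in the p53 and neural lists. Dmd, which encodes dystrophin, went from 1.19 to 2.08 RPKM, and the large cadherin gene Fat4 from 10.0 to 16.9 RPKM.

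Lower genes outside the lists included both listed monocarboxylate transporters, Slc16a3 (41.9 to 22 RPKM) and Slc16a1 (31.3 to 16.9 RPKM). Bnip3, of mitophagy, went from 58.5 to 32.8 RPKM. The histone variant gene H2afz (H2az1) went from 104 to 60.8 RPKM and the nucleosome-binding gene Hmgn2 from 55.4 to 34.5 RPKM. Ptx3, a pentraxin of innate immunity, went from 241 to 125 RPKM, Zc3h12a, an RNase that cuts cytokine mRNAs, from 15.5 to 8.20 RPKM, and Tnfsf11, the RANK ligand gene, from 25 to 13.8 RPKM. Each of these lower genes has 1 value per arm and an unadjusted p-value above 0.01 in the authors' deposited table.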
